A study of Mus musculus with 13 samples.

Results

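The regions described here are the 300 kb bins next to the centromeres of mouse chromosomes 1 to 19: the first 6 Mb of assembled sequence on each, up to position 9000000 (GRCm38), in bins that are above 0 in at least 1 tumour. All 380 bins at these positions met the rule, 20 on each chromosome, out of 8576 bins above 0 somewhere on chromosomes 1 to 19 and X. They were compared with the 7639 other bins of the same chromosomes. The 190 bins of the first 3 Mb of these chromosomes, before the members begin, were listed at 0 in all tumours.

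The values are percentages of 5-hydroxymethylcytosine (5hmC) from shallow tet-assisted bisulfite sequencing (TAB-seq) of 13 breast tumours, which the PyMT oncogene had induced in FVB mice. In the first mouse model, aged 16 weeks, 3 mice were wild type for Phd2 (PHD2+/+) and 4 were heterozygous (PHD2+/-), with no plasmid given for any of the 7. In the second model, aged 12 weeks, FVB mice for which no Phd2 genotype is given were injected hydrodynamically with the empty plasmid PRRL2 (n = 3) or with PRRL2-sFlk1 (n = 3). The labels describe the heterozygous tumours as having restored blood supply and oxygenation and the sFlk1 tumours as more hypoxic. Age and plasmid injection differ between the models, so levels of one model against the other cannot be told apart from age. The labels do not say what drives the oncogene, whether the Phd2 allele was deleted in all cells, or whether littermates were used, and they describe 1 tumour per mouse. Each tumour was measured as a whole, so a change in the share of tumour, vessel or immune cells cannot be told apart from a change within cells. DNA modification levels hold no marker that identifies the tissue, so the label of the tissue could not be checked. No read counts came with the percentages: the depth is unknown, and bins listed at 0 may lack 5hmC or lack reads.

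5hmC is the base that TET dioxygenases make from 5-methylcytosine in a reaction that uses oxygen, and it is known to gather in the bodies of active genes and at enhancers. Mouse chromosomes are telocentric: the centromere, with its satellite repeats, lies at the start of the sequence numbering, is left as a gap in the assembly, and is packed as constitutive heterochromatin in which cytosines are heavily methylated and few genes are active. The bins studied here are the first assembled sequence beyond that gap. Phd2 (Egln1) is an oxygen sensor that marks HIF for degradation, and sFlk1 is a soluble VEGF receptor that traps VEGF, the main growth factor of blood vessels.

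The following sequences show 6 promoters picked from these bins after their values were seen. Each is the 250 bases before 1 RefSeq start site (GRCm38.p6) of a gene, read 5′ to 3′ on the strand of the gene. Every CG dinucleotide, the usual site of methylation, is in capitals. For Dnmt3a, Pgr and Yap1 the start site used lies inside the annotated gene, which begins at 3801559, at 8898900 and, on the minus strand, at 8004638. The first 3 come from bins of high 5hmC, the fourth from the bin of the progesterone receptor, and the last 2 from bins of vomeronasal receptors on chromosome 7, which are among the lowest.
Tns3: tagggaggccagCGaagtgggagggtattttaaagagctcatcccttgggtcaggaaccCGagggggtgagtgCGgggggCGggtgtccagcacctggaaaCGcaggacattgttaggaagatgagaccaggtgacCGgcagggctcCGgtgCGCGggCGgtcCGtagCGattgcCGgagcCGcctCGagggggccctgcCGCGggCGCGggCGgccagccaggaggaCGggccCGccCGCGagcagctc
Dnmt3a: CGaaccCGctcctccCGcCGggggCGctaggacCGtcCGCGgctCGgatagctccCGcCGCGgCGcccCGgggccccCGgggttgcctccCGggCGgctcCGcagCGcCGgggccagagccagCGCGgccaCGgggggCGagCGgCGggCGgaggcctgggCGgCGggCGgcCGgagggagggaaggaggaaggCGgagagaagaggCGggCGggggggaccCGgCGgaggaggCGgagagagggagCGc
Yap1: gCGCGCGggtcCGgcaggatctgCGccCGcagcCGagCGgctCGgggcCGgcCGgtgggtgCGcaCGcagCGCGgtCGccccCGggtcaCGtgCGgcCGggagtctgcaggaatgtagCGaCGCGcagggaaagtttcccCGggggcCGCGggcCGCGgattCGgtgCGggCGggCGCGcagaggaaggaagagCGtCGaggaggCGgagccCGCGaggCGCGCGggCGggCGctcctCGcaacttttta
Pgr: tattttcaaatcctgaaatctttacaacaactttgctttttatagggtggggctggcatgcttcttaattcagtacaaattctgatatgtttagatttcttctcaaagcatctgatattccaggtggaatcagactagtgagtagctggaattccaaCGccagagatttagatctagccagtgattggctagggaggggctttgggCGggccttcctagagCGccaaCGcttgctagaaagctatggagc
Vmn2r45: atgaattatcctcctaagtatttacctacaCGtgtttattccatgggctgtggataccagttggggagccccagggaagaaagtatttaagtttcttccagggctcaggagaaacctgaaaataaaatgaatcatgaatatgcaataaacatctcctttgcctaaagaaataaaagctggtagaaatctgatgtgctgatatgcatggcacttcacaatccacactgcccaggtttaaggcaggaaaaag
Vmn2r40: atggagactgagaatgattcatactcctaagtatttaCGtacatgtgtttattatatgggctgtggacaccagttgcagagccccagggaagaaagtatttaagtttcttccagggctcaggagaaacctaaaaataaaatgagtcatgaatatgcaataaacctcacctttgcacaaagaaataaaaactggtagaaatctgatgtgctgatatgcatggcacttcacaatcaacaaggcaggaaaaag
Tns3 encodes tensin 3, an adaptor of focal adhesions. Its promoter (chr11:8664536-8664785, minus strand) holds 24 CG, and its bin had the highest 5hmC of the 380, 7.82% on average. The promoter of Dnmt3a, which encodes a de novo DNA methyltransferase, lies at chr12:3806730-3806979 on the plus strand and holds 38 CG in a bin at 6.58%. That of Yap1, the transcriptional coactivator of the Hippo pathway, lies at chr9:8004597-8004846 on the minus strand, with 44 CG in a bin at 5.93%. The Pgr promoter (chr9:8899583-8899832, plus strand) holds 4 CG in a bin at 1.21%. The promoters of the pheromone receptors Vmn2r45 (chr7:8488960-8489209, minus strand) and Vmn2r40 (chr7:8931403-8931652, minus strand) hold 1 CG each, in bins at 0.394% and 0.241%. Over all 1475 RefSeq promoters with a member bin the median was 6 CG, as over all 31396 promoters of chromosomes 1 to 19. With the member bins in 3 equal classes by 5hmC, the median was 2 CG in the lowest class (up to 1.5%), where 18.1% of promoters held at least 10, against 9 CG and 49.2% in the highest class (over 3.23%). Across all promoters that share was 38.3%, and at least 1 CG was in 92.4%. These are descriptions of bins sorted by their own level, and the letters CG read the same on both strands.

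Taken as a whole, the centromere-proximal bins carried slightly less 5hmC than the rest of the same chromosomes in every tumour. In the 3 Phd2 wild-type tumours their mean was 2.45%, 2.14% and 2.42%, where the rest of chromosomes 1 to 19 had 2.52%, 2.26% and 2.50%. The 4 heterozygous tumours had 2.80%, 3.05%, 2.83% and 2.49% next to the centromeres and 3.07%, 3.31%, 2.91% and 2.64% in the rest. Wild-type tumour 2 was the lowest of all in both compartments and heterozygous tumour 2 the highest. Empty-vector tumours had 2.82%, 2.58% and 2.52% against 2.96%, 2.70% and 2.66%, and sFlk1 tumours had 2.38%, 2.45% and 2.50% against 2.45%, 2.56% and 2.60%. The proximal bins were thus below the rest in 13 of 13 tumours, at 0.913 to 0.974 of its level. With each chromosome given equal weight, the difference was -0.154 percentage points (SD 0.0637, n = 13 tumours), with a range of -0.285 to -0.0873. All tumours share the same chromosome starts, so this SD and the count of 13 do not measure the spread between chromosomes. Between chromosomes the sign varied, with 10 starts above their rest on average. Leaving out chromosomes 7 and 14, a choice made after their values were seen, reduced it to -0.0598, but the deficit was not confined to these 2: 9 chromosomes had a start below their rest, chromosome 3 by the most (-1.15). Counting only the first 3 Mb gave -0.0326 and the first 9 Mb -0.221. At the other end of the same chromosomes, the 393 bins of the last 6 Mb averaged 2.84%, above the 2.57% of the proximal bins and the 2.70% of the rest. By chromosome the order varied. The last 6 Mb had less 5hmC than the first on chromosomes 2, 3, 4, 10, 12, 13, 17, 18 and 19 and more on the others. Means of the last 6 Mb ranged from 0.879% on chromosome 18, where the start had 3.62%, to 4.34% on chromosome 11, where it had 3.73%.

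**Figure D1:**
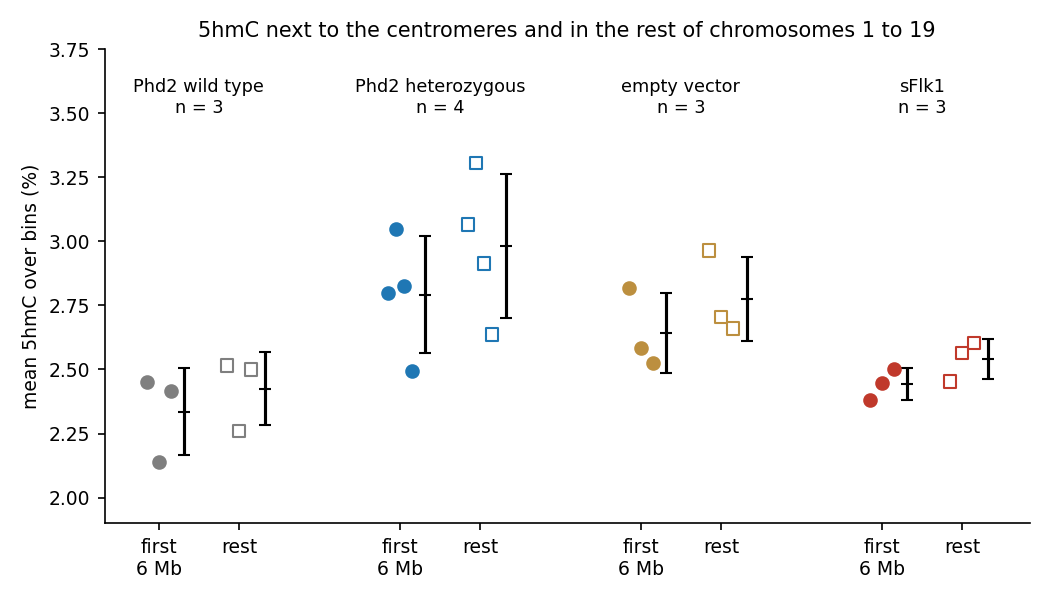
Mean 5hmC (percent, on an axis that does not start at 0) over the first 6 Mb (filled circles) and over the rest of chromosomes 1 to 19 (open squares), 1 point per tumour, with the group mean and SD as a black bar. In every group the mean of the filled circles is below that of the open squares by a small step, though their ranges overlap. Heterozygous tumours (2.49% to 3.05% in the first 6 Mb) lie above wild-type ones (2.14% to 2.45%).

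The small mean difference hid large ones of both signs between chromosomes. The starts of chromosomes 1, 3, 5, 7, 8, 9, 13, 14 and 16 lay below the rest of their chromosome, each in 13 of 13 tumours. Those of the other 10 lay above it on average, and 6 of them (2, 10, 11, 17, 18 and 19) did so in 13 of 13 tumours. The spread between chromosomes was wide: the SD over the 19 proximal means was 0.783 percentage points, against 0.224 over the means of the rest, each of which averages far more bins. Chromosome 3 had the lowest start relative to its rest, at 1.66% ± 0.242 (SD, n = 13) against 2.81% ± 0.296. Chromosome 14 followed with 1.41% ± 0.225 against 2.49% ± 0.288, and chromosome 7 with 1.49% ± 0.208 against 2.32% ± 0.256. At the upper end stood chromosome 17, with 3.47% ± 0.398 against 2.58% ± 0.248. Chromosome 18 had 3.62% ± 0.525 against 2.88% ± 0.323, and chromosome 11 had 3.73% ± 0.386 against 3.09% ± 0.372.

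In a limma fit over all 402 windows of 6 Mb on chromosomes 1 to 19, which asks whether the difference from the rest of the chromosome is 0 over the 13 tumours, 18 of the 19 first windows passed a Benjamini-Hochberg adjusted p of 0.05, 9 as higher and 9 as lower. Chromosome 15 was the exception, at 0.0818 percentage points (SE 0.0482, limma adjusted p = 0.108). Of all windows, 89.8% passed in either direction, 45.8% as higher and 44% as lower. A shift away from the chromosome mean that repeats from tumour to tumour was therefore the usual state of a 6 Mb window, and the first windows were close to that background. Ranked among the windows of its own chromosome, no first window was the lowest. On 7 chromosomes it was within the lowest 25% of windows and on 5 within the highest 25%.

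**Figure D2:**
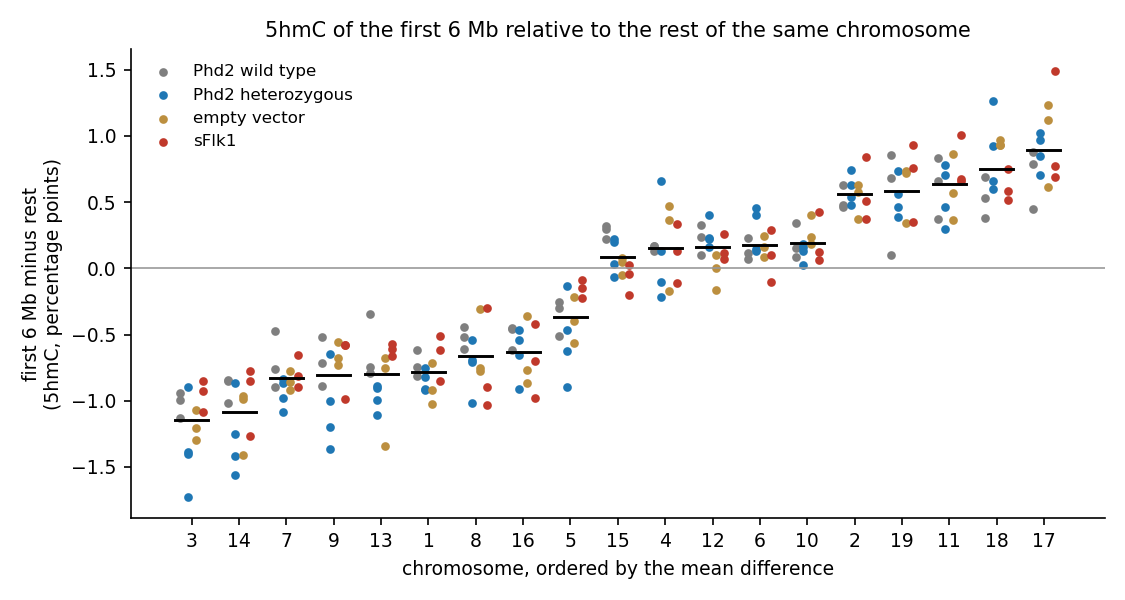
5hmC of the first 6 Mb minus the rest of the same chromosome (percentage points, y axis) for chromosomes 1 to 19 ordered by the mean difference (black bar), with 1 point per tumour coloured by group. The points of a chromosome stay together across all 4 groups, from -1.15 on chromosome 3 to 0.891 on chromosome 17, and 15 of 19 chromosomes keep 1 sign in all 13 tumours.

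Within the 6 Mb, 5hmC was lowest in the very first bin. The first assembled bins, 1 on each of the 19 chromosomes, averaged 1.75%, against 2.61% over the other members, and lay below the mean of the other 19 bins on 15 of 19 chromosomes. Averaged over chromosomes, the first bin was the lower in 13 of 13 tumours. It ranged from 0.483% on chromosome 3, where no gene is assigned to it, to 4.69% on chromosome 17, where it covers Scaf8. From the second bin on there was no steady rise away from the centromere: the second bin averaged 3.14%, the bins up to 6000000 averaged 2.69% and those from 6000001 to 9000000 averaged 2.46%. The last bins inside the limit, from 8700001, averaged 2.98% and the first ones outside it, from 9000001, averaged 2.75%. Bins at 0 in a tumour made up 3.24% of the values of the first bin.

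Single bins differed far more than chromosomes did, from 0.230% to 7.82% with a median of 2.34%. Among them 21.3% were below 1% and 9.21% above 5%, against 21.6% and 10.4% of the bins in the rest. The order of the bins repeated across tumours: over the 380 bins, profiles of 2 tumours correlated with Pearson r of 0.723 to 0.878 within a group (15 pairs) and 0.691 to 0.905 between groups (63 pairs). All pairs share the same bins and base composition, so these values are descriptions.

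The highest of the 380 bins was that of Tns3. This bin (chr11:8400001-8700000) had 8.71%, 4.84% and 8.36% in wild-type tumours and 10.3%, 10.1%, 8.10% and 6.93% in heterozygous ones. It had 6.86%, 8.60% and 6.90% with the empty vector and 7.14%, 8.05% and 6.80% with sFlk1, so that the groups overlapped and only wild-type tumour 2 was below 6%. Next came Znrf3, Kremen1 and Emid1 in 1 bin of chromosome 11 (6.91%), the first 2 of which encode antagonists of Wnt signalling. The bin of Lrp5, a Wnt co-receptor, with Kmt5b and Chka on chromosome 19 had 6.75%. Chd7, a chromatin remodeller (chr4:8700001-9000000), had 6.72%, and Usp6nl, a GTPase-activating protein of the RAB family (chr2:6300001-6600000), had 6.68%. Dnmt3a and Dtnb shared a bin at 6.58%. Ghr, the growth hormone receptor (chr15:3300001-3600000), had 6.55%, and the bin of Upf2, a factor of nonsense-mediated decay, with Proser2 and Echdc3 had 6.39%.

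The lowest bins lay on chromosomes 14, 7, 13 and 1. On chromosome 14 the first 15 bins (up to position 7500000) averaged 0.657%, from 0.204% to 1.12% in single tumours, and 42.6% of their values were 0. They hold 73 protein-coding genes in the annotation, of which all but 1 carry the names of predicted genes. On chromosome 7 the last 5 of the 20 bins (chr7:7500001-9000000) averaged 0.482%, with 63.1% of values at 0, and their 10 coding genes were all Vmn2r vomeronasal receptors. The bin of Vmn2r45 was at 0 in 8 of 13 tumours and that of Vmn2r40 in 10 of 13. Both stretches were delimited after their values were seen and are described without a test. Other bins among the 8 lowest were 2 without a named gene, at chr13:7800001-8100000 (0.396%) and chr1:3900001-4200000 (0.427%).

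**Figure D3:**
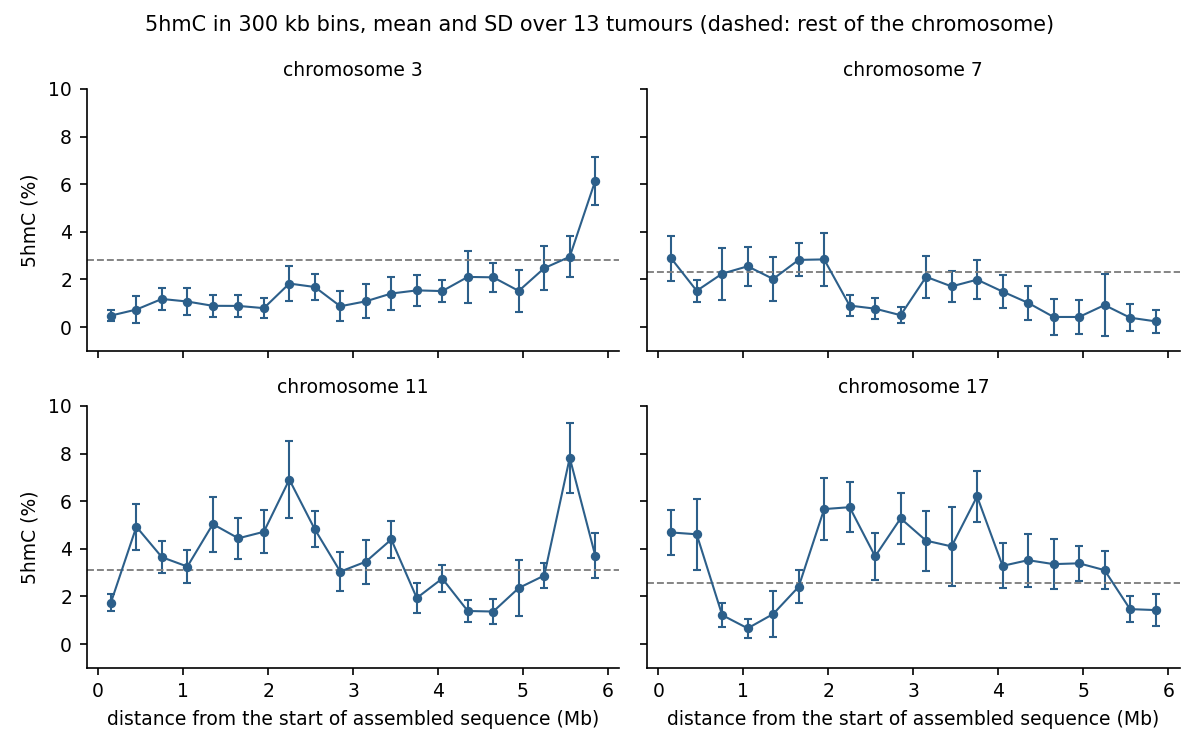
5hmC (percent) in the 20 proximal bins of chromosomes 3, 7, 11 and 17 against the distance from the start of assembled sequence (Mb), as the mean and SD over 13 tumours, with the mean of the rest of each chromosome dashed. Chromosome 3 starts at 0.483% in its first bin, chromosome 7 has its lowest values in the last 5 bins, the vomeronasal stretch at 0.482%, and chromosome 11 ends near the Tns3 bin at 7.82%.

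Zeros were gathered in those 2 stretches. Of 4940 member values (380 bins in 13 tumours), 190 were 0, or 3.85% against 2.04% in the rest, and 126 of them were on chromosomes 7 and 14. All 13 member bins that were at 0 in 5 or more tumours lay there, 5 on chromosome 7 and 8 on chromosome 14, which is 3.42% of the members against 0.969% of the bins in the rest. Outside the 2 stretches 1.41% of values were 0 and the mean was 2.68%. No low bins were taken out of the rest (2.70%), so these values cannot be set against it. The part that missing data play in the low values of the stretches was not tested. Heterozygous tumours had 2.63% to 5.53% of member bins at 0, wild-type tumours 1.84% to 2.89%, empty-vector tumours 3.16% to 3.95% and sFlk1 tumours 3.42% to 6.05%. The share of zeros was thus higher in 3 of 4 heterozygous tumours than in any wild-type tumour, while their mean 5hmC was higher too. The same held in the rest, where the share was 0.641% to 3.64% in heterozygous and 0.956% to 1.86% in wild-type tumours.

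Receptor families best known from the sensory tissue of the nose had low bins here as elsewhere. The 12 member bins with vomeronasal receptors (29 genes, 10 of the bins on chromosome 7) averaged 0.856%, against 1.08% for such bins in the rest. The 3 bins with olfactory receptors (10 genes) averaged 1.56% against 1.69%. Zinc finger (Zfp) genes, often repressors of transposable elements, lay in 10 member bins (23 genes) at 2.42% against 3.05%. These differences were not tested.

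Genes of the mammary tumour's signalling pathways that happen to lie next to a centromere were read from 5 lists by role, with 36 genes in 30 bins. A bin covers a gene and its surroundings, so its value is not that of the gene alone. Hormone receptors had the lowest bins, at a median of 1.82% over 6 bins. Esr1, the oestrogen receptor, lies in a bin (chr10:4800001-5100000) with 3.18%, 1.47% and 2.66% in wild-type, 1.57%, 2.88%, 2.64% and 2.12% in heterozygous, 3.22%, 0.927% and 3.87% in empty-vector and 3.67%, 1.21% and 2.17% in sFlk1 tumours, so all groups overlapped. The progesterone receptor bin (Pgr, chr9:8700001-9000000) had 1.05%, 1.69% and 0.855% in wild-type and 0.281%, 1.27%, 1.13% and 0.974% in heterozygous tumours. It had 3.30%, 2.74% and 0.216% with the empty vector and 0.703%, 0.727% and 0.779% with sFlk1, where the low empty-vector tumour 3 kept the groups from separating. Calcr, the calcitonin receptor, had 0.823%, the lowest bin of the lists, while Ghr had the highest of this group.

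The cytokines of the LIF and oncostatin family and their receptors had a median of 4.55% over 3 bins. Lif and Osm share a bin (chr11:4200001-4500000) with 2.86%, 3.64% and 4.59% in wild-type and 6.57%, 5.98%, 4.51% and 4.42% in heterozygous tumours. In the plasmid model it had 6.22%, 6.15% and 6.30% with the empty vector and 4.68%, 4.22% and 5.33% with sFlk1. Here sFlk1 and control tumours did not overlap, while the Phd2 groups overlapped by wild-type tumour 3. The difference was -1.48 percentage points (SE 0.793, limma adjusted p = 0.705) for sFlk1 and 1.67 (SE 0.742, limma adjusted p = 0.428) for the heterozygous genotype, so neither passed. Lifr, the receptor of LIF, had a bin mean of 4.55%. Osmr, the oncostatin receptor, shares its bin with Rictor, a subunit of the kinase complex mTORC2, at 3.91%.

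Regulators of transcription and chromatin had a median of 4.77% over 11 bins, from 0.978% for Sox17, an endothelial and endodermal factor, to 6.58% for Dnmt3a. The Dnmt3a bin (chr12:3600001-3900000) had 6.01%, 5.00% and 6.42% in wild-type and 6.70%, 9.91%, 6.63% and 8.75% in heterozygous tumours, a complete separation of the 2 groups. Its difference of 2.19 percentage points (SE 0.942) had a limma adjusted p of 0.418. The bin of Zeb1, a repressor that drives epithelial-mesenchymal transition, was at 2.58% on average. Signalling and survival genes had a median of 4.38% over 6 bins, led by the bin of Yap1 with the apoptosis inhibitors Birc2 and Birc3. That bin (chr9:7800001-8100000) had 6.32%, 4.83% and 6.0% in wild-type and 7.20%, 7.70%, 7.33% and 5.94% in heterozygous tumours, overlapping by heterozygous tumour 4. Genes of metabolism and matrix had a median of 3.15% over 6 bins, from 2.63% to 4.48%. The median over all members was 2.34%.

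Bins with genes had more 5hmC than bins without, next to the centromeres as in the rest. The proximal bins held 2.61 protein-coding genes each against 2.56 in the rest, and 37.6% of their sequence lay in such genes against 41.0%. In bins without a coding gene 5hmC was 1.64% next to the centromeres (114 bins) and 1.67% in the rest. With 1 gene it was 2.76% and 2.79%. Bins with 2 to 3 genes had 3.04% and 3.39%, lower next to the centromeres in 13 of 13 tumours, and those with 4 to 6 genes 2.91% and 3.52%, again in 13 of 13. Bins with 7 or more genes went the other way, with 3.50% and 3.23%, higher next to the centromeres in 13 of 13 tumours. Every tumour was read over the same 34 proximal bins here, so such counts do not measure the spread between bins. The start of chromosome 19 held 10.8 coding genes a bin at 3.68%, and its part in this class was not tested. Without chromosomes 7 and 14 the bins of 4 to 6 genes stood at 3.64% and 3.60%, lower next to the centromeres in 4 of 13 tumours, whereas the classes of 2 to 3 genes (3.23% and 3.43%) and of 7 or more (3.93% and 3.32%) kept their direction. Across bins, Spearman's rho between coding cover and 5hmC was 0.423 in the members and 0.435 in the rest, and that between the number of genes and 5hmC was 0.363 and 0.444. Neighbouring bins share genes and reads of the same library, so these are descriptions.

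**Figure D4:**
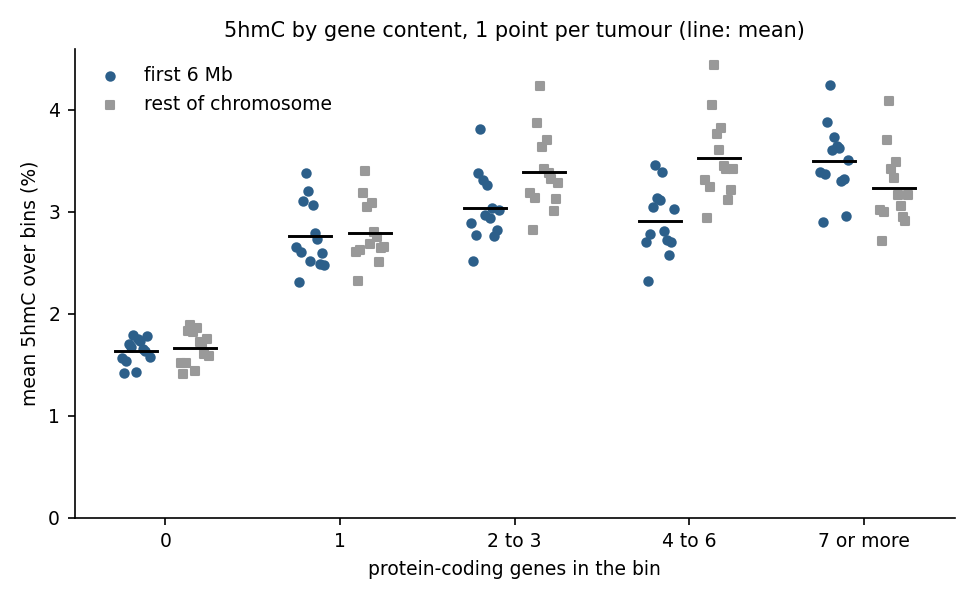
Mean 5hmC (percent) of bins with 0, 1, 2 to 3, 4 to 6 and 7 or more protein-coding genes, in the first 6 Mb (blue circles) and the rest of the chromosome (grey squares), with 1 point per tumour and the mean as a line. Proximal bins rise from 1.64% without a gene to 3.50% with 7 or more, and they lie below the rest at 4 to 6 genes (2.91% and 3.52%).

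The comparison of the Phd2 groups asks whether 5hmC differs when the tumours' oxygen supply is restored. Next to the centromeres 5hmC was 2.79% ± 0.228 in the 4 heterozygous tumours and 2.34% ± 0.170 in the 3 that were wild type (mean ± SD). The difference was 0.457 percentage points (SE 0.150), or 19.6%, beside 0.556 (SE 0.163), or 22.9%, in the rest, and the groups did not overlap. With medians over the bins the groups overlapped, the difference being 0.289 percentage points. No p is given for a mean over chosen bins. By chromosome the difference was 10.5% to 29.3% of the wild-type level at the start (median 17.9%) and 19% to 26.9% in the rest (median 22.8%), and it was the smaller at the start on 15 of 19 chromosomes.

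Tested window by window, 19 of 19 first windows were higher in heterozygous tumours, as were 98.5% of all windows, and 10 passed (limma, adjusted p under 0.05): those of chromosomes 1, 2, 4, 6, 10, 11, 12, 17, 18 and 19. This is 52.6% of the first windows, where 67.7% of all 402 windows passed. The median difference was 0.354 percentage points over the first windows and 0.547 over all windows. Chromosome 18 had the largest difference. Its start had 3.23%, 3.07% and 3.11% in wild-type and 4.17%, 4.85%, 3.79% and 3.42% in heterozygous tumours, without overlap, a difference of 0.920 percentage points (SE 0.276, limma adjusted p = 0.00700). The smallest differences were on chromosome 14, with 1.21%, 1.21% and 1.39% in wild-type and 1.47%, 1.78%, 1.19% and 1.49% in heterozygous tumours (difference 0.213, SE 0.139, limma adjusted p = 0.149), and on chromosome 9, also 0.213 (SE 0.181, limma adjusted p = 0.261). On chromosome 14 it was 0.114 without heterozygous tumour 2. The heterozygous tumours were separated upwards from the wild-type ones in 8 of 19 first windows, against 53.5% of all windows. Across the 19 chromosomes the difference was larger where the start had more 5hmC (Spearman's rho 0.811, Pearson's r 0.854, the same tumours entering both axes).

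The count of passing windows depended on single tumours. Without wild-type tumour 2, the lowest of its group, 0 of 19 first windows passed, as did 0 of all 402. It was 2, 3 and 5 of 19 without heterozygous tumours 1, 2 and 3, where 155, 136 and 227 of all 402 windows passed. Without wild-type tumour 3 it was 5 of 19 and 202 of 402, and without heterozygous tumour 4 it was 16 of 19 and 346 of 402. Whether the genotype's difference was smaller at the start than in the rest of the chromosome was tested directly: 0 of 19 first windows passed, with 0 of all 402, and 3 were lower at an unadjusted p under 0.05 (15.8%, where 13.4% of all windows were). The lowest limma adjusted p was 0.194. The difference between start and rest of the mean over chromosomes was -0.213 percentage points ± 0.0864 with the heterozygous genotype (SD, n = 4) and -0.114 ± 0.0296 with the wild type (SD, n = 3), and the groups overlapped.

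Among single bins 0 of 380 passed for the Phd2 comparison, as did 0 of all 8576. At an unadjusted p under 0.05, 30 were higher (7.89%, where 10.4% of all bins were) and 2 lower (0.526%, where 0.443% were), and 269 of 380 had a higher mean in heterozygous tumours (70.8%, against 75.1% of all bins). The smallest p was that of the bin of Rb1cc1, a subunit of the autophagy-initiating ULK complex (chr1:6000001-6300000). It had 1.74%, 1.66% and 2.91% in wild-type and 5.25%, 3.85%, 3.88% and 4.82% in heterozygous tumours, a difference of 2.35 percentage points (SE 0.611, limma adjusted p = 0.324) without overlap. The bins of Tiam2, a Rac exchange factor, of Umad1 with Mios and Rpa3, and of Ncoa1, a coactivator of nuclear receptors, followed with differences of 2.82 (1.83 without wild-type tumour 2), 2.21 and 2.55. The Ncoa1 bin (chr12:4200001-4500000) had 4.88%, 3.55% and 6.12% in wild-type and 7.60%, 8.79%, 6.68% and 6.54% in heterozygous tumours, again without overlap. In the other direction, the bin of Xkr4 (chr1:3300001-3600000), whose value is low throughout, had 1.13%, 1.92% and 0.608% in wild-type and 0%, 0.375%, 0.573% and 0% in heterozygous tumours (difference -0.983, SE 0.314, limma adjusted p = 0.337; -0.634 without wild-type tumour 2). The 3 next lower ones were the bin of Vmn2r40 and 2 without a coding gene on chromosomes 4 and 12, by -0.561, -1.15 (-0.747 without wild-type tumour 2) and -0.673. Of the 30 bins of listed genes, 25 had a higher mean in heterozygous tumours with a median difference of 0.884 percentage points, where the median over all bins was 0.385, and 0 passed. By role this was 1 of 6 bins for hormone receptors, 3 of 3 for the LIF family, 11 of 11 for transcription and chromatin, 6 of 6 for signalling and 6 of 6 for metabolism and matrix. A bin with genes of 2 lists counts in both. The listed bins had a median 5hmC of 3.88%, above the 2.34% of all members. The part that this higher level plays in their difference was not tested.

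The comparison of sFlk1 with the empty vector asks the reverse, whether 5hmC differs when vessels are cut back. Next to the centromeres it was 2.44% ± 0.0615 (SD, n = 3) in sFlk1 and 2.64% ± 0.156 (SD, n = 3) in empty-vector tumours. Each of the sFlk1 tumours was below each of the controls. The difference was -0.199 percentage points (SE 0.0971), or -7.52%, beside -0.236 (SE 0.105), or -8.51%, in the rest. Without empty-vector tumour 1, the highest of its group, the proximal difference was -0.110. The gap between proximal bins and the rest, by chromosome, was -0.114 ± 0.0210 in sFlk1 and -0.157 ± 0.0106 in empty-vector tumours (SD, n = 3 each), a difference of 0.0423 (SE 0.0136) with no overlap between the groups. With 3 against 3 tumours and no test over the mean, this is a description.

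None of the 19 first windows passed for sFlk1 in the limma fit, as none of the 402 did: 16 were lower, where 86.8% of all windows were, 1 of them at an unadjusted p under 0.05 (5.26%, where 8.96% of all windows were), and 0 were higher at that p (0.249% of all windows). Chromosome 18 was again the largest, with 4.05%, 3.83% and 3.85% with the empty vector and 3.19%, 3.36% and 3.20% with sFlk1, a difference of -0.664 percentage points (SE 0.295, limma adjusted p = 0.481) without overlap. The start of chromosome 5 was higher with sFlk1, by 0.114 (SE 0.194, limma adjusted p = 0.764), at 0.211 without empty-vector tumour 1 and 0.0109 to 0.200 without sFlk1 tumours 3 or 1, but the sign turned without empty-vector tumour 3 (-0.0156). The sFlk1 tumours were separated downwards from their controls in 4 of 19 first windows, against 21.9% of all windows. Relative to the rest of the chromosome 0 of 19 first windows passed, as did 0 of 402, and at an unadjusted p under 0.05 there were 0 in either direction (3.73% of all windows higher, 3.48% lower). The test of whether the step towards better oxygenated tumours differed between the 2 models likewise gave 0 of 19 and 0 of 402, with 0 first windows at an unadjusted p under 0.05 (6.72% of all windows higher, 0% lower) and a lowest limma adjusted p of 0.602.

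**Figure D5:**
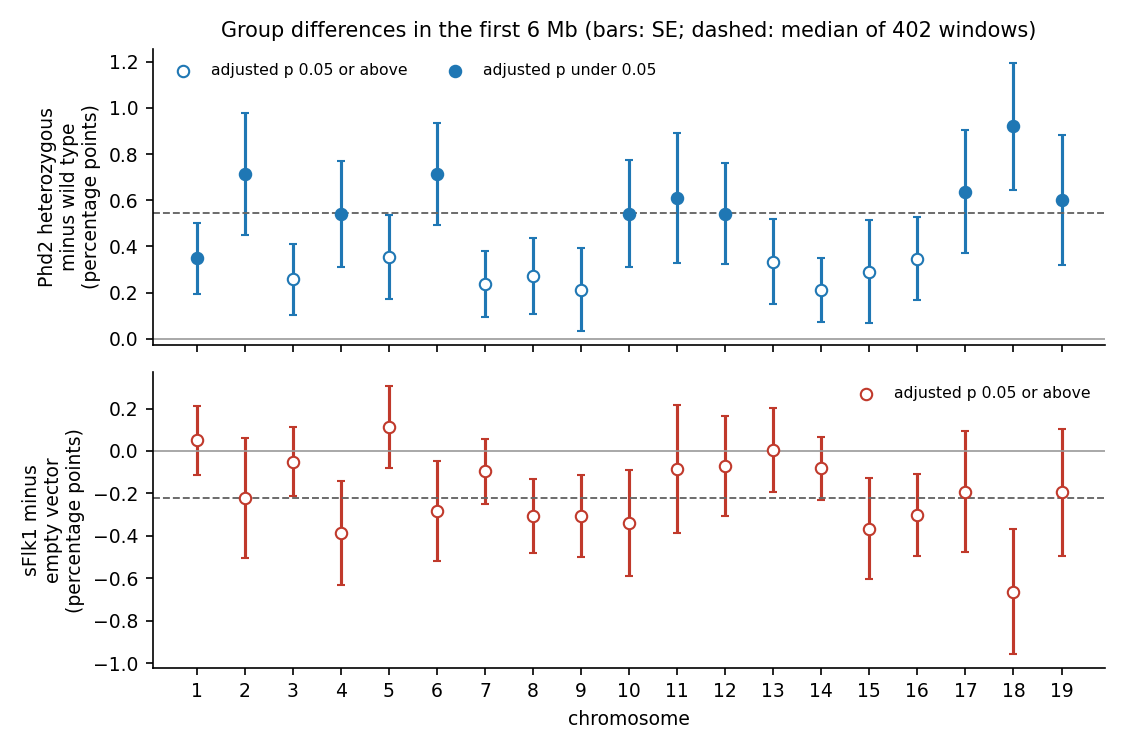
Differences in 5hmC of the first 6 Mb (percentage points) by chromosome, for heterozygous minus wild-type tumours (top) and sFlk1 minus empty-vector tumours (bottom), with SE bars, filled where the limma adjusted p is under 0.05, and with the median of all 402 windows dashed. All 19 values are above 0 in the top panel and 16 are below 0 in the bottom panel, with chromosome 18 the farthest from 0 in both (0.920 and -0.664).

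Of the single bins 0 of 380 passed for sFlk1, where 0.0117% of all 8576 bins did, and at an unadjusted p under 0.05 19 were lower (5.0%, where 5.06% of all bins were) and 11 higher (2.89%, where 2.12% were). The members with a lower mean in sFlk1 numbered 222 (58.4%, against 59.5% of all bins). The smallest p was that of the bin of Sem1, a small subunit of the proteasome (chr6:6300001-6600000). It had 6.49%, 4.97% and 5.09% with the empty vector and 2.69%, 1.61% and 2.92% with sFlk1, a difference of -3.11 percentage points (SE 0.676, limma adjusted p = 0.253) without overlap. The Phd2 groups had 2.69% ± 0.201 (SD, n = 3) and 2.93% ± 0.919 (SD, n = 4) there, close to the sFlk1 tumours. Age and plasmid injection differ between the models, so this likeness cannot be told apart from age. The bin at chr14:7500001-7800000, which borders the low stretch, had 5.32%, 3.59% and 3.90% with the empty vector and 1.50%, 1.95% and 1.86% with sFlk1 (difference -2.50, SE 0.705, limma adjusted p = 0.466). The next were 2 bins without a named gene, at chr14:5100001-5400000 inside the low stretch and at chr17:4200001-4500000.

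Of the 4 bins with the smallest p in the direction of higher 5hmC in sFlk1, 3 lay in the low stretches and rested on values beside zeros. At chr14:4500001-4800000 sFlk1 tumours had 0%, 3.90% and 2.74% and all 3 empty-vector tumours 0% (difference 2.21, SE 0.521, limma adjusted p = 0.342; 1.37 without sFlk1 tumour 2). At chr14:3600001-3900000 they had 2.56%, 2.04% and 0%, again with all empty-vector tumours at 0%. Each of these bins, and that of Vmn2r33 and Vmn2r34 on chromosome 7, passed when 1 sFlk1 tumour was left out (replicate 1, 3 and 2 in this order). In those fits 4, 2 and 2 of all 8576 bins passed. The fourth, at chr11:7800001-8100000 without a coding gene, had 2.68%, 3.86% and 4.99% with sFlk1 and 1.73%, 2.16% and 1.95% with the empty vector (difference 1.9, SE 0.641, limma adjusted p = 0.517). Of the 30 listed bins, the mean was the lower with sFlk1 in 20, where 59.5% of all bins were lower. Their median difference was -0.194 percentage points where that over all bins was -0.146, and 0 passed. By role the lower ones were 4 of 6 for hormone receptors, 3 of 3 for the LIF family, 9 of 11 for transcription and chromatin, 4 of 6 for signalling and 2 of 6 for metabolism and matrix. A bin with genes of 2 lists counts in both.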

How the data were processed

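As deposited by the authors, the table gives 5hmC in percent, 9097 bins by 13 tumours. Per the labels' protocols, DNA from frozen tumours was extracted in buffers with 200 µM DFO, TAB-converted and bisulfite-treated. The submitters' processing notes list Bismark 0.13.1 and mm9. The pooling of calls into bins and any limit on coverage are not stated in the labels. The last bin of chromosome 1 ends at 195471971, the length in GRCm38, so coordinates are given as GRCm38. Genes (RefSeq, GRCm38.p6) were assigned to the bin holding most of the gene body. Gene number followed 5hmC best with no shift of up to 30 bins on 18 of 19 chromosomes, all but chromosome 13.

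Depth is unknown, so percentages were tested in place of read counts, with each bin given equal weight. Groups came from the sample titles and columns were matched by the labels' descriptions. Bins of chromosomes 1 to 19 and X above 0 in at least 1 tumour (8576), and 402 windows of 6 Mb with at least 10 bins, were tested with limma 3.58.1 (R 4.3.3; trend, 4 group means over 13 tumours in 1 fit, Benjamini-Hochberg over the whole table at 0.05); SEs of bins and windows are limma's, and those of group means come from the group SDs. The fit was tested on simulated data. P-values measure the spread between these tumours. The members and gene lists were chosen with earlier results of these data known. Bins were named by a rule: the 8 highest and 8 lowest, the 4 smallest p-values in each direction of a comparison, the 3 highest and 3 lowest first windows and those with the largest and smallest difference, plus bins of 36 listed genes. Up to 3 genes are named for a bin, the longest first, leaving out predicted ones. Scaf8, the bins of the closing observations, the 6 promoters and the low stretches were chosen after values were seen. Values of 1 bin are not reported here. Alternatives were medians, the first 3 or 9 Mb, bins above 0 in all tumours, log2 of the percentage plus 0.5, no trend, 2 groups in the fit, 3 Mb windows, scaling to the rest, the replicate number as a block, and each tumour left out.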

Additional observations from a re-analysis of the deposited data

Results flagged for a closer look

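Among the heterozygous tumours, the only group of 4, the 2 overall means, each first window and each named or listed bin were examined for a tumour far from the other 3. Of 76 such sets of values 4 held one by Dixon's 95% criterion, and chance alone flags about 1 in 20 where values are normally distributed. A set with 1 tumour above 0 and the other 3 at 0 always meets the criterion, so that rate does not apply to such bins. This was the case in the first 3 sets below. In the Vmn2r45 bin of chromosome 7, tumour 3 had 0.909% while the others were at 0%. In the bin of Vmn2r33 and Vmn2r34, tumour 4 had 0.510% beside 0% in the others. At chr14:5100001-5400000, inside the low stretch, tumour 2 had 5.0% beside 0% in the others. In the Ghr bin of chromosome 15 tumour 2 had 6.05%, below the 6.75% to 6.84% of the other 3.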

How the results depend on the processing

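The level of the proximal bins against the rest was below 0 under every alternative run, but its size moved: -0.0326 percentage points with the first 3 Mb, -0.221 with the first 9 Mb and, in the alternative added after seeing the data, -0.0598 without chromosomes 7 and 14; leaving out tumours gave -0.160 to -0.143. Scaled to each tumour's mean over the rest, the group differences changed sign, by construction since the rest differed by more: -0.0667 for Phd2 and 0.0282 for sFlk1. Left-out tumours gave 0.360 to 0.556 for Phd2 and -0.258 to -0.110 for sFlk1. First windows passing for Phd2 were 0 to 16 with 1 tumour left out, 5 with only the 2 groups in the fit (220 of all 402) and 6 of 38 with 3 Mb windows (236 of all 805); for their level against the rest, 31 of 38 with 3 Mb windows (719 of all 805) and 17 to 18 with 1 tumour left out (357 to 361 of 402); the cause was not tested. Member bins passing for sFlk1 were 0 to 1 with 1 tumour left out, where 1 to 4 of all 8576 bins passed. The difference at the start of chromosome 5 was -0.0156 to 0.211. The replicate numbers did not pair tumours (r of deviations from -0.0972 to -0.00268 for the same number). With the replicate block the Phd2 difference was 0.556, since heterozygous tumour 4 has no partner, the sFlk1 difference -0.199, and 15 first windows passed for Phd2 (308 of all 402). Unknown depth limits the bins with many zeros most.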

Other observations

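Several bins that the naming rule did not take stood out when the profiles were read through, and they were chosen after their values were seen. On chromosome 3, whose start had the lowest level relative to its rest, 19 of the 20 bins were at or below 2.95%, and the last one, with Mrps28 and the tumour protein gene Tpd52 (up to chr3 position 9000000), had 6.14%. On chromosome 17 the bins of Arid1b, a subunit of the BAF chromatin remodeller (chr17:5100001-5400000), and of Ezr, the membrane-cytoskeleton linker ezrin, with Sytl3 (chr17:6600001-6900000), had 5.75% and 6.20%, while 3 bins from 3600001 to 4500000 had 1.21%, 0.659% and 1.26%. On chromosome 18 the bin of Svil, which encodes the actin-binding supervillin, had 6.37% on average. Its values were 5.23%, 4.57% and 5.04% in wild-type and 7.71%, 8.30%, 6.40% and 9.70% in heterozygous tumours, without overlap. With the empty vector it had 6.88%, 5.15% and 5.82%, and with sFlk1 5.06%, 3.89% and 9.03%, where the groups overlapped. The Svil bin did not pass in the limma fit: 0 of 380 member bins passed in either comparison. Of all 8576 bins, 0 passed for Phd2 and 1 for sFlk1. The imprinted gene Peg3 lies with Usp29 and Zim1 in a bin of chromosome 7 at 1.99%.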
